A study of Mus musculus with 3 samples.

Results

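Purinergic and adenosine signalling was followed through 10 genes, taken by gene symbol from the gene and transcript tables: the ATP-gated channels P2rx4 and P2rx7, the nucleotide receptors P2ry2, P2ry6 and P2ry14, the adenosine receptors Adora2a and Adora2b, the ectonucleotidases Entpd1 and Nt5e, and the adenosine deaminase Ada. All 10 were found, among 55536 annotated genes of which 22028 are protein-coding. The cells were macrophages grown out of C57BL/6J bone marrow, and what was sequenced was total RNA of their chromatin fraction after depletion of ribosomal RNA. They had met Lipid A, the lipid anchor of lipopolysaccharide to which Toll-like receptor 4 responds, at 100 ng/ml for 12 h, had then been left without it for 12 h, and had met it again at 100 ng/ml for 120 min. There were 3 libraries of this 1 condition and no untreated, singly stimulated or cytoplasmic sample among them, so every value here is a level in restimulated chromatin RNA, and no response to Lipid A can be measured.

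The labels number the libraries as biological replicates 1 to 3 with 1 technical replicate each, made from 1 µg, 250 ng and 500 ng of RNA. All 3 carry a single donor record and no sex or age, and nothing says that they came from separate animals, so each SD measures the spread between these libraries only. Replicates 1, 2 and 3 held 10293545, 17820066 and 17548564 estimated counts in the gene tables. Replicate 1 stood apart: its counts differed from those of replicates 2 and 3 by a chi-square of 69.7 and 78.2 per degree of freedom. Between replicates 2 and 3 the value was 22.2. Each was taken over the genes with enough counts in that pair of libraries, 14479, 14457 and 14697 genes in turn. All 10 of 10 macrophage markers reached 1 TPM, a unit that scales a gene's counts to its length and to the library, in every library, with a summed level of 1036 to 1553 TPM, while 4 of 49 markers in lists for 9 other cell types did and 12 of those 49 were listed at 0 throughout. The endothelial list had the highest summed level of these others, at 16.1 to 31.7 TPM, and its part in the levels below was not tested. In bulk RNA such as this, fewer cells that carry a transcript and less of it per cell cannot be told apart.

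ATP that leaves stressed or dying cells is a danger signal that macrophages read through P2X channels, which let cations in, and through P2Y receptors, which couple to G proteins and also read UTP, UDP and UDP-sugars. At the cell surface CD39, made from Entpd1, strips ATP and ADP to AMP, and CD73, made from Nt5e, turns AMP into adenosine, which the receptors made from Adora2a and Adora2b read by raising cyclic AMP. Adenosine deaminase ends that signal by turning adenosine into inosine, and in macrophages the adenosine arm is known for damping the inflammatory programme that Lipid A starts.

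A gene was called expressed where it had at least 1 TPM in all 3 libraries. By that rule 7 of the 10 genes were expressed, and 42.0% of all protein-coding genes were. P2rx4, P2rx7, P2ry2, P2ry6 and Adora2a, 5 of the 10, exceeded the median of expressed protein-coding genes in all 3 libraries, as did 18.5% of all protein-coding genes. That median was 9.95, 13.9 and 12.1 TPM in replicates 1, 2 and 3. On the log2(TPM + 0.1) scale the median over the 10 genes was 4.11 ± 0.12 (SD, n = 3 libraries), against 3.58 ± 0.24 over expressed protein-coding genes and -1.04 ± 0.09 over all protein-coding genes. These shares and medians describe a list put together with the biology of macrophages and earlier results in view, and nothing particular to the 10 genes is read from them.

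**Figure D1:**
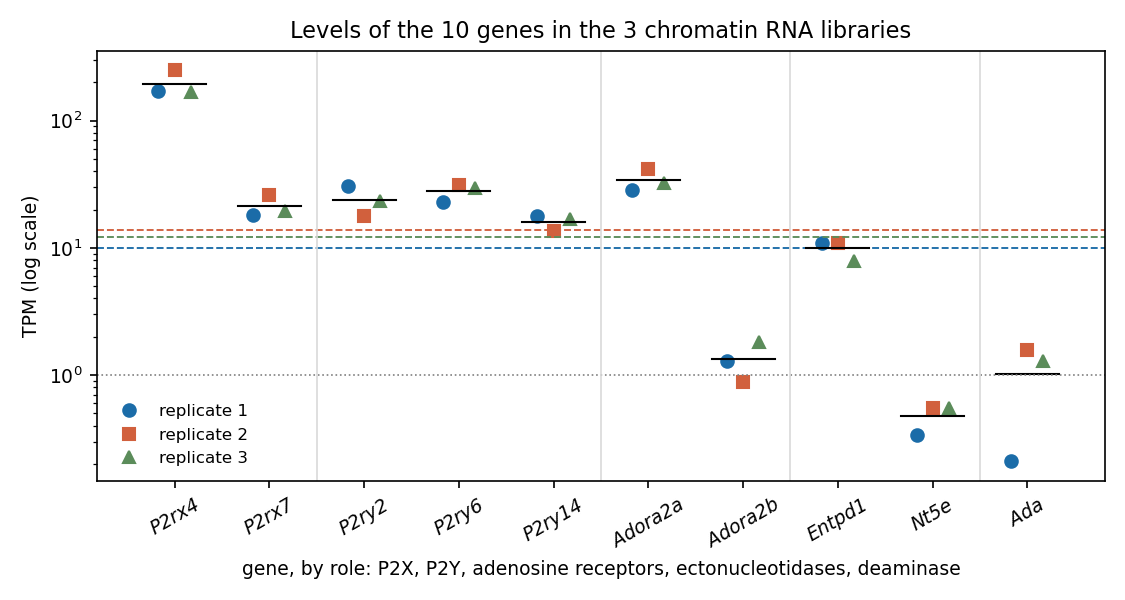
Level of each gene in TPM (log scale) in the 3 chromatin RNA libraries, with genes ordered by role; symbols are replicates, black bars their mean, dashed lines the median of expressed protein-coding genes in each replicate in its colour, and the dotted line 1 TPM. P2rx4 sits between 168 and 248 TPM, above all the others in every library, while Adora2b, Nt5e and Ada lie below 2 TPM.

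Of the ATP-gated channels, P2rx4 was by far the most abundant of the 10 genes, counted over all its annotated isoforms. It encodes P2X4, a channel that in macrophages is held largely in endosomes and lysosomes, and it spans chr5:122707544-122729738 on the plus strand (mm10). P2rx4 had 169.8, 248 and 168 TPM in replicates 1, 2 and 3, from 3288, 5904 and 4745 estimated counts, a mean of 195 ± 45.6 TPM (SD, n = 3). Its percentiles among expressed protein-coding genes were 97.5, 98.2 and 97.4, and it alone held 58.5% ± 4.07 (SD, n = 3) of the TPM of all 10 genes together. No other gene of the group came within its range in any library.

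P2rx7 encodes P2X7, the low-affinity ATP channel whose opening drives potassium out of the cell and starts the NLRP3 inflammasome, and it lies upstream of P2rx4 on the same strand, at chr5:122643911-122691432, with 16111 bases between the genes. P2rx7 had 18.2, 26.2 and 19.6 TPM in replicates 1, 2 and 3, from 441, 1017 and 921 counts, a mean of 21.3 ± 4.29 TPM (SD, n = 3). Within each library P2rx7 was below its neighbour P2rx4 by a nearly constant amount, with a difference of -3.18 ± 0.08 in log2(TPM + 0.1) (SD, n = 3), or a P2rx4 level 9.11 ± 0.491 times that of P2rx7. The exact two-sided sign-flip test over the 3 libraries gave p = 0.25, the smallest p that 3 libraries allow, and 0.417 after Benjamini-Hochberg adjustment over the 5 pairs compared in this way. In CPM, counts scaled to the library and not to length, the difference was -2.60 ± 0.27 (log2, SD, n = 3). Isoforms annotated as protein-coding held 26.7% ± 4.90 of the P2rx4 TPM but 76.1% ± 1.76 of the P2rx7 TPM (SD, n = 3 each). The 9.11-fold ratio is thus one over all annotated isoforms, and most of the P2rx4 TPM lay in retained-intron isoforms, described below. The annotated microRNA gene Mir8115 overlaps 119 bases of the P2rx7 exons and was listed at 0 TPM in all 3 libraries.

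The pair of channel genes can be set side by side at their starts, as adjacent genes of the same family with levels far apart. The 100 bases before the first RefSeq start of each (GRCm38.p6, plus strand, P2rx4 at chr5:122707444-122707543 and P2rx7 at chr5:122643827-122643926) are given with the matches to the motifs searched below in capitals. For P2rx7 this is the first of 2 RefSeq starts; the 100 bases before the other, at chr5:122650283-122650382, hold no match. The capitals mark the core of a cyclic AMP response element in P2rx4, read on the other strand, and 2 GC boxes in P2rx7.
P2rx4 upstream: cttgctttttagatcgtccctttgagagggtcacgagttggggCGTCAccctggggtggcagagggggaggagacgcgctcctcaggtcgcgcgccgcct
P2rx7 upstream: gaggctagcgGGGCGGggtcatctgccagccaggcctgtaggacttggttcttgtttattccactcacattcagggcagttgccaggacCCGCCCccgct
RefSeq windows from 250 bases before to 50 bases after a start matched 8 of the 10 genes, with 14 windows in all; P2ry6 and Adora2a were not matched. On both strands, the GC box GGGCGG was found in windows of 6 of the 8 genes (Ada, Adora2b, Nt5e, P2rx4, P2rx7 and P2ry2) and in 35.7% of all 32851 windows. The PU.1 core GAGGAA, the motif of the macrophage lineage factor, was found for 3 genes (Entpd1, P2rx7 and P2ry14; 28.3% of all windows), the AP-1 motif TGANTCA for 2 (P2rx7 and P2ry14; 7.81%), and the cyclic AMP response element core TGACG for 2 (Entpd1 and P2rx4; 20.8%). A TATA box by the letters TATAAA was found for P2ry14 (13.6% of all windows), and the interferon-stimulated response element GAAANNGAAA and the NF-kB motif for none of the 8, with 3.44% and 4.51% of all windows holding them. The AP-1 letters read the same on both strands, so a match there counts on each. A match is a description of the letters in a window, and genes with several starts had several windows to match. The shares of all windows are therefore not to be set against the counts of genes. Counted by window, the GC box was in 7 of the 14, the PU.1 core in 7, the AP-1 motif in 3, the cyclic AMP response element core in 3 and the TATA box in 1.

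All 3 P2Y receptor genes of the group were expressed, within a narrow band of TPM over all annotated isoforms. In CPM P2ry14 stood apart, at a mean of 92.4 ± 25.0 against 22.4 ± 2.48 for P2ry6 and 23.7 ± 9.70 for P2ry2 (SD, n = 3 each). P2ry6, which encodes the UDP receptor, had 23.1, 31.4 and 29.5 TPM in replicates 1, 2 and 3, from 257, 357 and 377 counts, a mean of 28.0 ± 4.32 TPM (SD, n = 3). P2ry2, which encodes the receptor for ATP and UTP, had 30.4, 17.9 and 23.4 TPM, from 341, 245 and 412 counts, a mean of 23.9 ± 6.22 TPM (SD, n = 3). The genes lie 21918 bases apart on the minus strand of chromosome 7, P2ry2 at chr7:100996568-101012866 and P2ry6 at chr7:100937630-100974649. Their order turned with the library, since P2ry6 was below P2ry2 in replicate 1 and above it in replicates 2 and 3. The difference, P2ry6 minus P2ry2, was 0.25 ± 0.60 in log2(TPM + 0.1) (SD, n = 3; exact sign-flip p = 0.75, adjusted 0.75), smaller than its spread, and it was -0.03 without replicate 2. In the read-based tables described below P2ry6 minus P2ry2 was 0.73 ± 0.65 (SD, n = 3), positive in all 3 libraries but only 0.03 in replicate 1. A gene on the other strand, Gm44545, lies inside an intron of P2ry6 with 5.20, 13.3 and 8.81 TPM and shares no exon base with it.

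P2ry14, which encodes the receptor for UDP-glucose and other UDP-sugars, spans chr3:59113855-59153618 on the minus strand. It had 17.7, 13.6 and 16.7 TPM in replicates 1, 2 and 3, a mean of 16.0 ± 2.17 TPM (SD, n = 3). Its counts, at 1220, 1227 and 1531, were second only to those of P2rx4 among the 10 genes, and most of them were assigned to an isoform of 7795 bases. Its TPM fell just short of the median expressed gene in replicate 2, at 0.973 times that median, and above it in the others, at 1.78 and 1.38 times.

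Between the adenosine receptors Adora2a was the abundant one. Adora2a, the gene of the high-affinity receptor, at chr10:75316877-75334784 on the plus strand, had 28.4, 41.4 and 32.5 TPM in replicates 1, 2 and 3, from 586, 734 and 744 counts, a mean of 34.1 ± 6.61 TPM (SD, n = 3), the second level of the group. Adora2b, the gene of the low-affinity receptor, at chr11:62248984-62266453 on the plus strand, had 1.30, 0.890 and 1.82 TPM, from 27, 22 and 50 counts. Those counts have exact 95% Poisson intervals of 17.8 to 39.3, 13.8 to 33.3 and 37.1 to 65.9, which cover counting error only. Adora2b missed the expression rule through replicate 2 alone. The difference, Adora2b minus Adora2a, was -4.61 ± 0.69 in log2(TPM + 0.1) (SD, n = 3; exact sign-flip p = 0.25, the smallest possible, adjusted 0.417), and the Adora2a level was 28.7 ± 15.5 times that of Adora2b. Every Adora2b value was below every Adora2a value.

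Among the ectonucleotidases the gene of the first step was far above that of the second. Entpd1, at chr19:40612366-40741602 on the plus strand, had 11.0, 11.0 and 7.82 TPM in replicates 1, 2 and 3, from 225, 286 and 220 counts, a mean of 9.95 ± 1.84 TPM (SD, n = 3). Nt5e, at chr9:88327197-88372092 on the plus strand, had 0.340, 0.550 and 0.550 TPM, from 14, 27 and 31 counts with 95% Poisson intervals of 7.65 to 23.5, 17.8 to 39.3 and 21.1 to 44.0. Nt5e was below 1 TPM in all 3 libraries, with a mean of 0.480 ± 0.121 TPM (SD, n = 3), the lowest of the 10 genes. The bounds deposited with the Nt5e TPM are wide and reach above 1 TPM, at 0.242 to 2.13, 0.417 to 3.55 and 0.425 to 3.24 TPM. Those of Entpd1 were 11.2 to 19.5, 9.74 to 27.0 and 8.20 to 20.6 TPM, with its listed TPM below them in replicates 1 and 3. The difference, Nt5e minus Entpd1, was -4.12 ± 0.53 in log2(TPM + 0.1) (SD, n = 3; exact sign-flip p = 0.25, the smallest possible, adjusted 0.417), with an Entpd1 level 22.2 ± 9.31 times that of Nt5e.

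Ada, at chr2:163726584-163750239 on the minus strand, was also scarce. It had 0.210, 1.58 and 1.30 TPM in replicates 1, 2 and 3, from 4, 16 and 17 counts with 95% Poisson intervals of 1.09 to 10.2, 9.15 to 26.0 and 9.90 to 27.2. The low value was that of replicate 1, which was also the shallowest library. Ada-202, an isoform of 550 bases not annotated as protein-coding, had 0, 5 and 4 of these counts but 0, 1.09 and 0.780 of the TPM. Most of the Ada TPM of replicates 2 and 3 thus rests on these few counts. The difference, Ada minus Nt5e, was 0.66 ± 1.02 in log2(TPM + 0.1) (SD, n = 3; exact sign-flip p = 0.5, adjusted 0.625), smaller than its spread, and in CPM it was -1.03 ± 0.48. Adora2b was above Nt5e in each library, by 1.28 ± 0.59 in log2(TPM + 0.1) (SD, n = 3), but not in the read-based tables described below, where the difference was -0.05 ± 0.69. Ada minus Nt5e was 0.88 ± 0.71 there (SD, n = 3), positive in all 3 libraries but only 0.07 in replicate 1. At the depth of the alignment-based tables the place of Ada relative to Adora2b and Nt5e was not detectable.

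Ordered by mean TPM, the genes ran P2rx4, Adora2a, P2ry6, P2ry2, P2rx7, P2ry14, Entpd1, Adora2b, Ada and Nt5e. Neighbours were called apart where their difference in log2(TPM + 0.1) had 1 sign in all 3 libraries and its mean exceeded its SD. By that rule P2rx4 stood above Adora2a by 2.51 ± 0.12, Adora2a above P2ry6 by 0.28 ± 0.13, P2ry14 above Entpd1 by 0.69 ± 0.39, and Entpd1 above Adora2b by 2.84 ± 0.73 (SD, n = 3). P2ry6 and P2ry2, P2ry2 and P2rx7, P2rx7 and P2ry14, Adora2b and Ada, and Ada and Nt5e were not apart in the alignment-based tables. The order of P2ry14 and Entpd1 turned in the read-based tables, where P2ry14 minus Entpd1 was -0.64 ± 0.36 and negative in all 3 libraries, while the 3 other pairs called apart kept their direction there. P2ry2 minus P2rx7 was -1.07 ± 0.79 and Adora2b minus Ada -0.94 ± 0.79 in those tables, each negative in all 3 libraries (SD, n = 3). P2ry6 minus P2ry2 was 0.73 ± 0.65 and Ada minus Nt5e 0.88 ± 0.71 there, each positive in all 3 libraries (SD, n = 3). By the same rule these pairs were apart in the read-based tables, while P2rx7 and P2ry14 were not. In the alignment-based tables the group fell into 3 tiers of TPM over all annotated isoforms. These were P2rx4, a band of 6 genes between 7.82 and 41.4 TPM, and 3 genes below 2 TPM. The place of P2rx4 depends on that scope, since coding isoforms held 26.7% ± 4.90 of its TPM (SD, n = 3) but all of the Adora2a TPM. Coding isoforms of P2rx4 alone were still above Adora2a in each library of the alignment-based tables. In the read-based tables they were above Adora2a in replicate 1 and below it in replicates 2 and 3.

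The genes differed in how steady they were from library to library. The SD of log2(CPM + 0.5), with CPM scaled by edgeR's TMM factors, was 0.27 at the median of 13301 genes with at least 10 counts in each library, and 9 of the 10 genes passed that filter, Ada being the exception. P2rx4 had an SD of 0.13, P2ry6 and Nt5e 0.16 each, P2rx7 0.22 and Adora2a 0.25, against 0.63 for P2ry2, 0.53 for Adora2b, 0.39 for P2ry14 and 0.37 for Entpd1. The SD of Nt5e rests on 14, 27 and 31 counts, where the added 0.5 narrows it. It was 0.09 with a prior of 2 and 0.33 in log2(TPM + 0.1), so steadiness of Nt5e is not read from it. The log2 CPM values of P2ry2 were 5.07, 3.83 and 4.62 in replicates 1, 2 and 3. With 3 libraries these SDs rest on single ones. Without replicate 2 that of P2ry2 was 0.31 and that of Adora2b 0.10, and without replicate 1 those of P2rx7 and Adora2a were 0.06 each, that of P2ry6 0.10 and that of Entpd1 0.22. Without replicate 3 those of P2rx4 and Nt5e were 0.04 and 0.09. For P2ry2, P2ry6, P2ry14, Entpd1 and Adora2a the highest CPM was that of replicate 1, and for P2rx7 and Nt5e replicate 1 was the lowest. In TPM replicate 1 was instead the lowest for P2ry6 and Adora2a. RNA input and depth also differ between the libraries, and their part in this spread was not tested.

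Chromatin RNA holds transcripts that are still attached to their template, many of them not yet fully spliced, so the tables were also read by isoform, with the type that GENCODE M21 gives each. Isoforms annotated as retaining an intron took 68.1% ± 4.98 of the P2rx4 TPM (62.4%, 71.3% and 70.6% in replicates 1, 2 and 3), 67.4% ± 4.34 of that of P2ry14 (65.0%, 72.4% and 64.8%) and 61.5% ± 4.69 of that of P2ry2 (62.4%, 65.7% and 56.4%; SD, n = 3 each). The share was 44.6% ± 3.17 for P2ry6 and 3.66% ± 3.18 for P2rx7 (SD, n = 3 each). Adora2a, Adora2b, Entpd1 and Ada have no isoform of this type in the annotation, and the 38.8% of Nt5e rests on 4 to 9 counts a library. Of the 5 expressed genes with such an isoform, 3 were above 50% in every library, and 33.3% of 5967 expressed protein-coding genes with such an isoform were. The median share over those genes was 47.0% ± 1.49 (SD, n = 3).

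**Figure D2:**
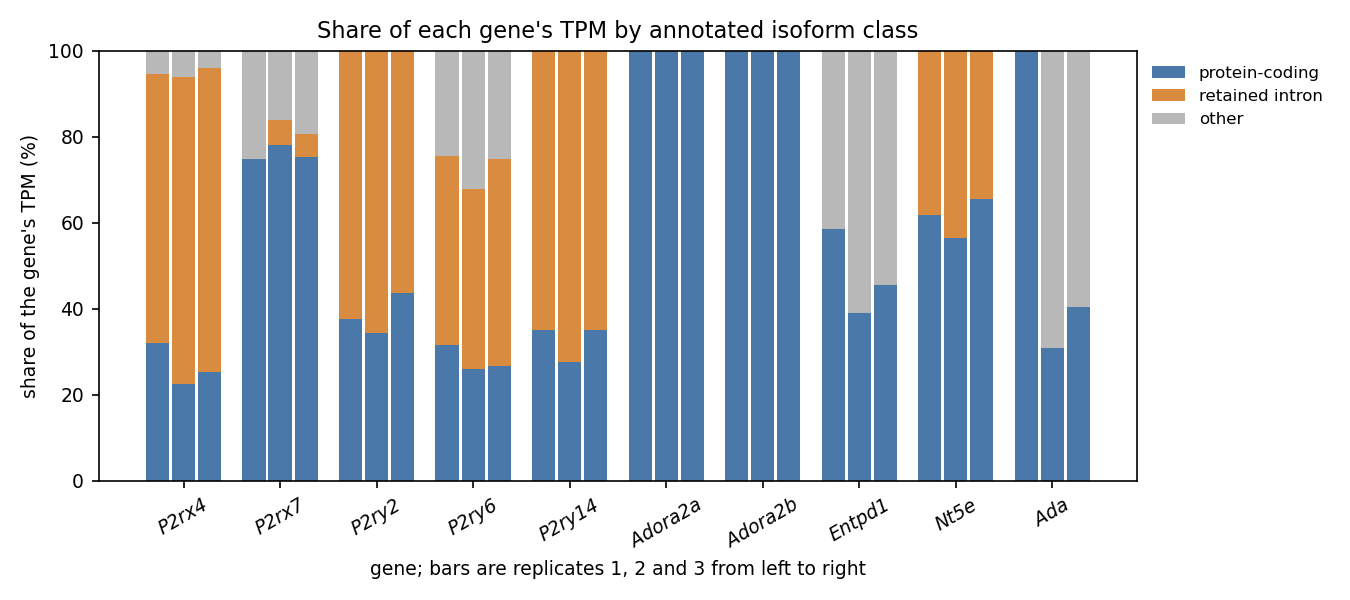
Share of each gene's TPM (%) in isoforms annotated as protein-coding, as retaining an intron, or as another type, with 1 bar per library. Retained-intron isoforms fill 62.4% to 71.3% of the P2rx4 bars and 56.4% to 65.7% of the P2ry2 bars, and at most 5.72% of the P2rx7 bars; Ada, Nt5e and Adora2b rest on few counts.

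These shares depend on whether abundance or reads are counted, since short isoforms gain weight per read in TPM. By estimated counts the retained-intron share was 68.3% ± 5.40 for P2rx4 and 91.2% ± 2.61 for P2ry14, but 22.9% ± 5.49 for P2ry2 and 23.1% ± 1.58 for P2ry6 (SD, n = 3 each), against a median of 31.0% over the 5967 genes. In the second, read-based set of tables it was 57.3% ± 3.23 of TPM for P2rx4, 53.3% ± 5.07 for P2ry2, 48.5% ± 0.544 for P2ry6 and 30.2% ± 3.61 for P2ry14 (SD, n = 3 each), so that P2rx4 alone was above 50% in every library there. The large share was thus seen on all 3 scales for P2rx4 and not for P2ry2, P2ry6 or P2ry14.

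The isoforms behind these shares read past a splice donor that the coding isoforms use. P2rx4-208 is a single exon of 3895 bases from near the start of the gene that runs 3676 bases into the 6611-base first intron, and 94.4% of it lies outside coding-isoform exons. It took 1618, 3631 and 2902 of the P2rx4 counts in replicates 1, 2 and 3, or 57.3% on average, with 35.2, 64.1 and 46.3 TPM. P2rx4-207 reads 251 bases past a donor further on, at 44.8, 55.4 and 37.6 TPM, and P2rx4-203 keeps a whole intron of 315 bases, at 25.9, 57.0 and 34.5 TPM. In replicate 1 all 3 had their lowest or middle value.

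P2ry14-204 is a single exon of 7795 bases that begins near the distal start of the gene and runs 7595 bases into a 37127-base intron, with 99.1% of it outside coding-isoform exons. It took 1079, 1149 and 1400 of the P2ry14 counts in replicates 1, 2 and 3, at 11.5, 9.80 and 10.8 TPM, while P2ry14-203, the coding isoform with the same first donor, had 0.730, 0.300 and 0.530 TPM. P2ry2-205 (565 bases) and P2ry6-202 (631 bases) are short single exons that read 285 and 483 bases past the end of any coding-isoform exon, at 18.9, 11.8 and 13.2 TPM and at 10.2, 13.1 and 14.2 TPM. P2rx7-205, the one such isoform of P2rx7, lies wholly within coding-isoform exons. Intron bases that no annotated isoform covers have no entry in these tables, so the values give reads placed on annotated isoforms and not the unspliced share of a gene.

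**Figure D3:**
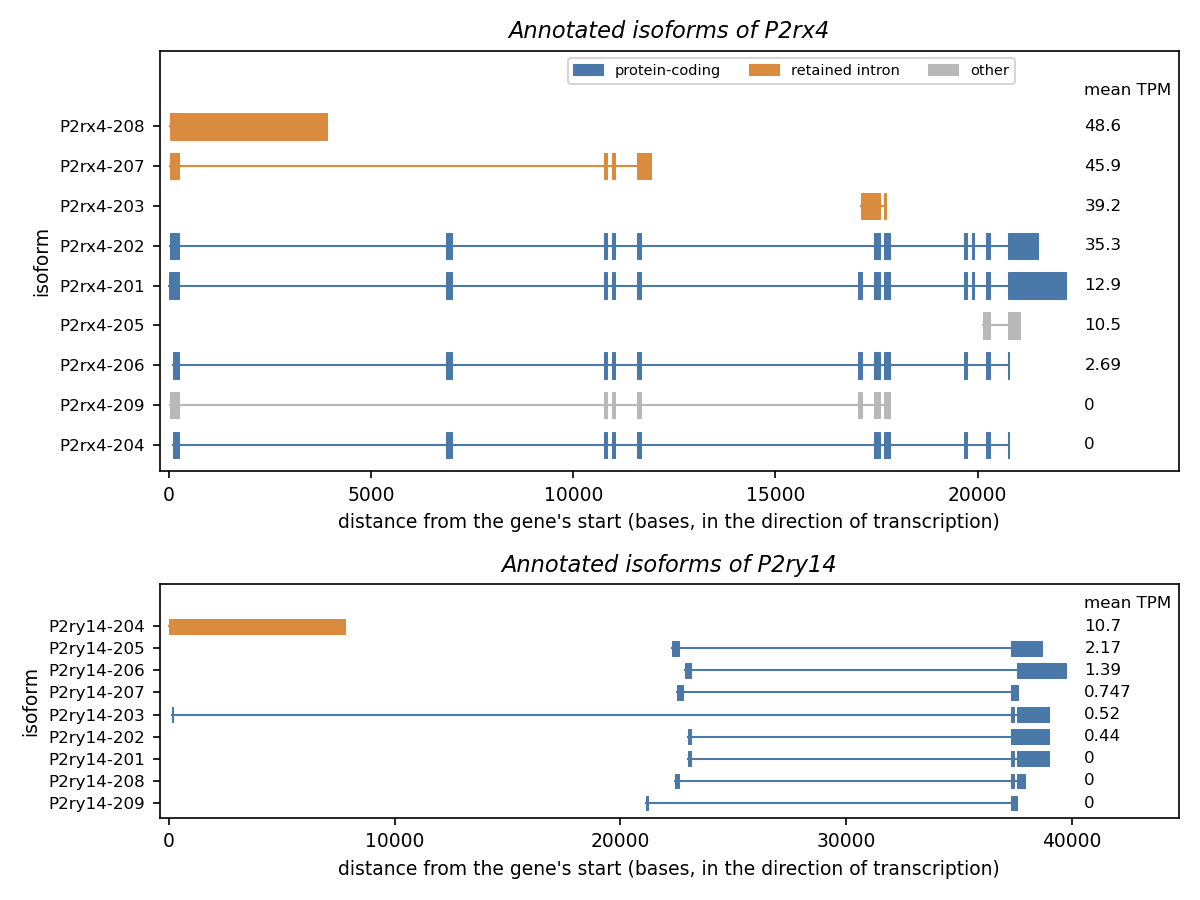
Annotated isoforms of P2rx4 and P2ry14 drawn to scale against the distance from the gene's start in bases, with exons as boxes, introns as lines, colour by annotated type, and the mean TPM over the 3 libraries at the right. P2rx4-208 (48.6 TPM) and P2ry14-204 (10.7 TPM), both single-exon blocks at the start of their gene, have the highest mean of their gene's isoforms in the alignment-based tables. P2rx4-207 was close, at a mean of 45.9 TPM, and above P2rx4-208 in replicate 1. In the read-based tables P2rx4-207 (49.6 against 38.5 TPM) and P2ry14-209 (13.0 against 8.82 TPM) had the higher means.

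The sequences at these exon ends show where each retained-intron isoform leaves the coding ones. Each line gives the last 12 bases of the exon in lower case and the next 12 bases of the transcript in capitals, from the GENCODE M21 transcripts on mm10, first as the retained-intron isoform reads them and then as a coding isoform with counts in these libraries does. The last exon base stands at chr5:122707787, chr5:122719226 and chr5:122724674 for P2rx4-208, P2rx4-207 and P2rx4-203 on the plus strand, and at chr7:101011712, chr7:100964219 and chr3:59153419 for P2ry2-205, P2ry6-202 and P2ry14-204 on the minus strand.
P2rx4-208 read through: ttacgtcattggGTGAGCGGGCCT
P2rx4-202 spliced: ttacgtcattggGTGGGTGTTCGT
P2rx4-207 read through: tggtgtgccaacGTGAGTCCTACC
P2rx4-202 spliced: tggtgtgccaacGAGGAATATCCT
P2rx4-203 read through: taatttcagcaaGTAAGTGGGGGC
P2rx4-201 spliced: taatttcagcaaGAGGAATATCCT
P2ry2-205 read through: agcgtgatctcgGTGAGTGTCATC
P2ry2-201 spliced: agcgtgatctcgGAGTCCTCCGGG
P2ry6-202 read through: gggagttttcagGTAAGGGTGCTT
P2ry6-201 spliced: gggagttttcagATAAACGGTGAC
P2ry14-204 read through: agccataagcagGTAAGGAGATTC
P2ry14-203 spliced: agccataagcagTGTCTGGAATTC
In all 6 the read-through sequence begins with GT, the pair of bases with which most introns open.

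The coding isoforms of P2rx4 differ by an exon of 81 bases at chr5:122724594-122724674, the sixth of the 12 exons of P2rx4-201, which P2rx4-202 with its 11 exons skips. The length is a multiple of 3, so the exon adds 27 codons without a shift of frame. In the lines below the exon is in capitals, with 12 bases of the exon before and after it in lower case.
P2rx4-201 with the exon: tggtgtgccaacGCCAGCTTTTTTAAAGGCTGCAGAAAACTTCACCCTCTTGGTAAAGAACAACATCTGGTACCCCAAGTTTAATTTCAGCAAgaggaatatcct
P2rx4-202 without it: tggtgtgccaacgaggaatatcct
Coding isoforms without the exon had 40.6, 38.0 and 27.4 TPM in replicates 1, 2 and 3, and those with it 13.9, 18.0 and 15.0 TPM. The share without it was thus 74.5%, 67.9% and 64.6% of the coding TPM, a mean of 69.0% ± 5.03 (SD, n = 3), above 50% in each library. In the read-based tables the share was 66.9%, 48.0% and 49.7%, a mean of 54.9% ± 10.5 (SD, n = 3), and there only replicate 1 was above 50%. The isoforms with and without the exon also differ in the length of their last exon, so the estimates do not rest on the skipped exon alone.

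The other expressed genes were spread over several isoforms. P2rx7-203, a coding isoform of 4936 bases, took 341, 861 and 824 of the P2rx7 counts in replicates 1, 2 and 3, or 83.8% on average, but 43.1% of the TPM, with P2rx7-202 of 712 bases at 27.3%. Adora2a-201 had 17.6, 17.0 and 16.2 TPM in replicates 1, 2 and 3, while Adora2a-203, of 538 bases, had 2.20, 15.3 and 7.71 TPM, so that the short isoform varied more than the long one. Entpd1-201 and Entpd1-204 are both coding isoforms with 10 exons. Their counts in the alignment-based tables were 94.3 and 98.6 in replicate 1, but 265 and 0 in replicate 2 and 198 and 0 in replicate 3. In the read-based tables Entpd1-204 was found in all 3 libraries, at 3.02, 1.48 and 0.710 TPM, with Entpd1-201 at 2.09, 2.75 and 1.79 TPM. The zeros thus belong to 1 set of estimates.

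The 2 sets of tables gave 4 of the 10 genes like levels and placed the other 6 at 1.81 to 4.60 times in the read-based set. In the read-based tables P2rx4 had 208, 271 and 215 TPM in replicates 1, 2 and 3, a mean of 231 ± 34.4 TPM (SD, n = 3) and 1.19 times its mean in the alignment-based tables, and P2ry6 had 1.12 times, P2ry2 0.820 times and Adora2b 0.882 times. The median ratio over expressed protein-coding genes was 1.31. P2rx7 had 31.3, 45.3 and 44.0 TPM there, or 1.88 times, and P2ry14 had 33.1, 26.8 and 27.1 TPM, or 1.81 times. Entpd1 moved most, to 45.7, 55.7 and 36.0 TPM, or 4.60 times, with 85.6% ± 8.24 of that TPM (SD, n = 3) in isoforms not annotated as protein-coding, which for this gene include transcripts of 204 to 628 bases. Adora2a had 62.9, 89.8 and 76.7 TPM there, or 2.24 times. Of its mean Adora2a-204, at 601 bases, held 33.2 TPM against 8.54 TPM in the alignment-based tables. Adora2a-202, at 434 bases, held 20.6 TPM against 0.213 TPM. Nt5e stayed low, at 1.44, 1.13 and 0.964 TPM, though 2.46 times its alignment-based mean, and so did Ada, at 1.52, 2.80 and 2.60 TPM or 2.24 times, which passes the expression rule there.

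**Figure D4:**
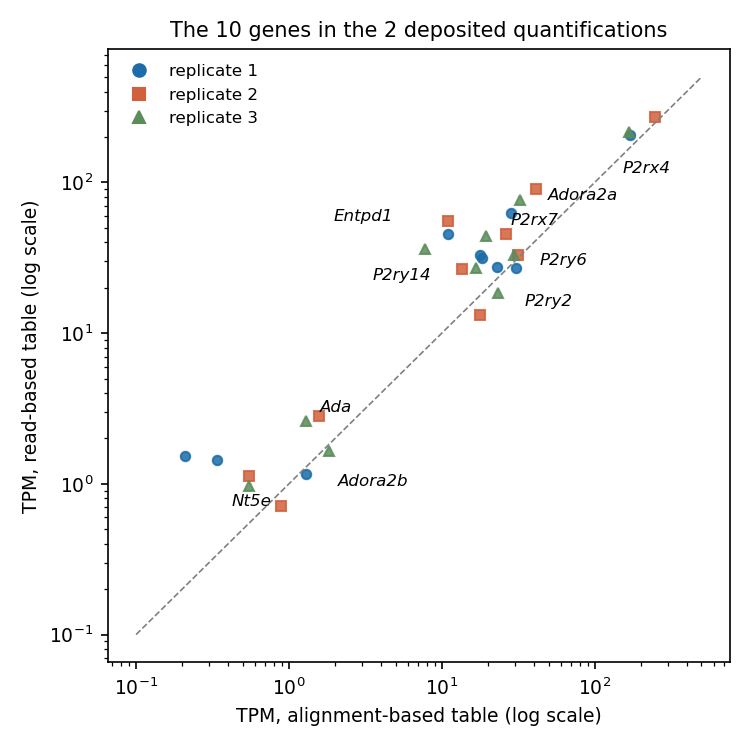
Level of each of the 10 genes in TPM in the read-based tables against the alignment-based tables (log scales), with symbols for replicates and a dashed line of equality. Entpd1 (45.8 against 9.95 TPM on average) and Adora2a (76.5 against 34.1 TPM) lie farthest above the line among the expressed genes, while P2ry2 (19.6 against 23.9 TPM) lies below it.

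The wider pathway was covered by 87 genes in 10 role lists, of which 50 were expressed, or 43 of 77 without the 10 genes, while 42.0% of all protein-coding genes were. The lists were chosen with earlier results known, so nothing particular to the pathway is read from these counts or those of single lists. For read-based counts the share over all protein-coding genes is not given. Receptor genes for nucleotides and adenosine outside the group did not pass the expression rule in the alignment-based tables; P2rx5 and Adora3 passed it in the read-based ones. Of 7 P2X genes P2rx4 and P2rx7 were the 2 expressed, and the next, P2rx5, had 0.730 ± 0.220 TPM (1.30 ± 0.188 TPM read-based; SD, n = 3 each), with P2rx1 at a mean of 0.143 TPM and P2rx2 lowest at 0.0233 TPM. The 3 P2Y genes of the group were the 3 expressed of 7; P2ry13, an ADP receptor gene, had 2.54, 1.33 and 0.840 TPM, P2ry12 averaged 0.373 TPM and P2ry4 0.00667 TPM. Adora2a was the 1 expressed adenosine receptor of 4, with Adora1 listed at 0 in every library. Adora3 averaged 0.0933 TPM, from 3, 2 and 0 counts, but 5.94 ± 1.30 TPM (SD, n = 3) in the read-based tables.

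Genes that release, break down and carry nucleotides and nucleosides varied more. Of 5 release genes 2 were expressed, Panx1, the pannexin channel gene, at 1.68 ± 0.580 TPM and Gja1 at 1.64 ± 0.271 TPM (SD, n = 3 each), with Panx3 lowest at 1 count, in replicate 2. Of 11 ectonucleotidases 2 were expressed in the alignment-based tables, where Entpd2, Entpd8, Enpp3 and Alpl, 4 of the 11, were listed at 0 throughout. By the read-based tables the expressed ones were 5, with Acpp at 5.37 ± 0.783, Enpp1 at 4.67 ± 1.78 and Bst1 at 2.81 ± 0.419 TPM (SD, n = 3 each) as the additional ones, and Enpp3 averaged 0.337 TPM. Cd38, which encodes a surface enzyme that breaks down NAD, was above Entpd1 in each library, with 24.0, 25.0 and 10.6 TPM, but in the read-based tables it was below Entpd1, at 19.7 ± 7.97 against 45.8 ± 9.84 TPM (SD, n = 3 each). Enpp1 had 0.780, 1.12 and 0.790 TPM. Among 4 NTPDase genes of intracellular membranes 3 were expressed, with Entpd7 at 17.6 ± 4.51 TPM and Entpd4 at 4.11 ± 0.792 TPM (SD, n = 3 each), and Entpd5 lowest at 0.753 TPM. Of 7 nucleoside transporters 3 were expressed. Slc28a2, the concentrating transporter of purine nucleosides, had 148, 73.3 and 70.7 TPM in replicates 1, 2 and 3, above the equilibrative Slc29a1, at 12.9, 14.5 and 15.9 TPM, in all of them. Slc28a1 and Slc28a3 were listed at 0, and Slc28a3 averaged 1.13 TPM in the read-based tables.

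Of the listed genes of purine metabolism and signalling inside the cell most were expressed, beside 42.0% of all protein-coding genes. Of 18 adenosine metabolism genes 12 were expressed. Xdh, whose enzyme makes urate from hypoxanthine and xanthine, had 467, 488 and 269 TPM, above P2rx4 in every library, and Pnp, which acts on inosine right after the deaminase, had 70.7, 91.0 and 73.0 TPM. Reads of Pnp are uncertain because its near-identical neighbour Pnp2 can share them, and Nt5c1b was lowest of this list at 0. Ada, at a mean of 1.03 TPM, stood 14th of these 18 genes. Of 16 genes for G proteins, adenylyl cyclases and cyclic AMP signalling 14 were expressed, with Gnai2 at 158 ± 53.4 TPM and Gna13 at 93.7 ± 13.7 TPM (SD, n = 3 each), and Pde4d lowest at 0.600 TPM. All 8 genes of the inflammasome branch that P2X7 feeds were expressed, with Gsdmd at 158, 190 and 166 TPM, Nlrp3 at 127, 209 and 138 TPM, and the potassium channel gene Kcnk6 lowest at 6.35, 6.10 and 4.82 TPM. P2rx7 itself was below both Gsdmd and Nlrp3 in each library.

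**Figure D5:**
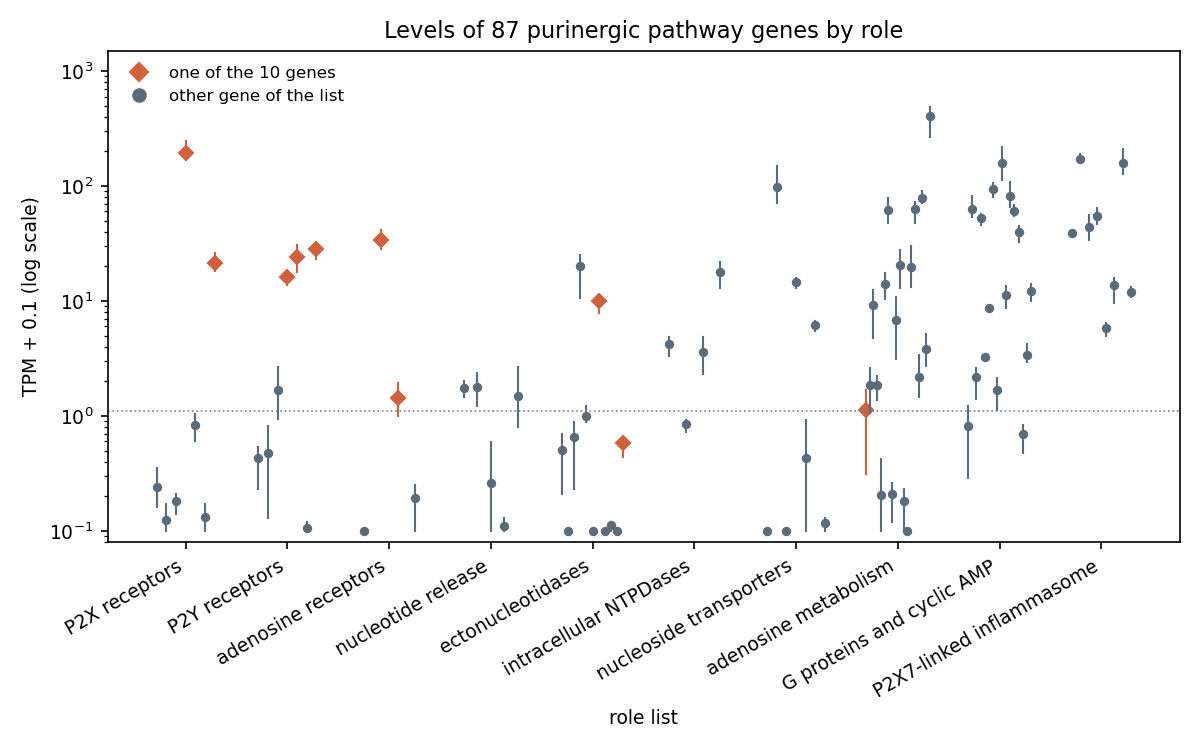
Mean level of 87 pathway genes by role list, as TPM + 0.1 on a log scale, with vertical lines from the lowest to the highest library, diamonds for the 10 genes, circles for the others, and a dotted line at 1 TPM. Members of the receptor lists outside the group lie near or below the dotted line, while all 8 inflammasome genes lie above it, between 5.76 and 172 TPM.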

How the data were processed

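The authors deposited 3 tables per library. Expected counts and TPM were made by the authors at gene and transcript level by RSEM-type estimation from reads aligned to transcripts, and again at transcript level by kallisto-type estimation from the reads themselves, per the file headers and the deposited notes. Those notes name mm10 and GENCODE M21. No software version or strand setting is given in the sources used here. Read-based gene values are sums over isoforms. Levels were taken as deposited TPM, with log2(TPM + 0.1) for differences. Counts were rounded to whole numbers and scaled with edgeR 4.0.16 (TMM, at least 10 counts per library, log2(CPM + 0.5)); DESeq2 1.42.0 size factors were an alternative. The edgeR coefficient of biological variation was 26.3%, and 15.6% without replicate 1. Scripts ran in R 4.3.3 and Python 3.11.15 with scipy 1.17.1 and were tested on simulated data. With 1 condition there was no contrast; the sole test was the exact two-sided sign-flip test of 5 within-library differences between genes. Intervals on counts are exact Poisson intervals at 95% and cover counting error only.

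The members, role lists and marker lists were chosen with earlier results of these data known. Genes outside the group are named by rule: the 2 highest by mean TPM and the lowest of each role list, and genes whose exons overlap a member; P2rx3, P2rx6 and the like are counted only. Entpd2, Entpd8, Enpp3, Alpl, Acpp, Bst1, Slc28a3, Gm44545 and the named isoforms were added after their values were seen, as was the count of genes above 50% retained-intron TPM. Alternatives were the read-based tables, CPM in place of TPM, TPM rescaled without mitochondrial and spike-in entries and without genes under an effective length of 200 bases, thresholds of 0.5 and 5 TPM, pseudocounts of 0.01 and 1, a prior of 2, no filter, and leaving out each replicate. Protein sequences were not used here.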

Additional observations from a re-analysis of the deposited data

How the results depend on the processing

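The number of expressed genes was 7 to 9 and the number above the median expressed gene 5 or 6 under all alternatives run, including those without a replicate. The median level of the 10 genes, 4.11 in log2(TPM + 0.1), became 4.90 in the read-based tables, 4.52 in CPM, 5.43 with rescaled TPM and 4.60 over expressed members only; without a replicate it was 4.07 to 4.18. The differences P2rx7 minus P2rx4, Adora2b minus Adora2a and Nt5e minus Entpd1 stayed negative under all 8 alternatives each, between -3.23 and -2.53, -5.96 and -3.91, and -5.16 and -2.88. P2ry6 minus P2ry2 turned to -0.03 without replicate 2 and was 0.57 without replicate 1 and 0.73 in the read-based tables. Ada minus Nt5e turned to -1.03 in CPM, was 0.30 to 1.24 without a replicate and was 0.88 in the read-based tables. The number of genes above 50% retained-intron TPM, 3, was 1 in the read-based tables and 2 by counts. In comparisons of gene pairs added after seeing the data, P2ry14 minus Entpd1 turned to -0.64 in the read-based tables, Adora2b minus Nt5e to -0.05 and Cd38 minus Entpd1 to -1.29. The cause of these shifts was not tested. Of single-gene levels, 25 of 80 moved by more than their SD, none of them on leaving out a replicate, and of the 60 values of replicate spread 12 moved by over 1.5 times, 9 of them on leaving out a replicate and 3 with a prior of 2. Of pathway genes 36 to 60 were expressed, and the share over all protein-coding genes is not given for these alternatives.

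No comparison between conditions, paired or not, was possible because there is only 1 group. Depth limits Ada, Nt5e and Adora2b, at 4 to 50 counts a library. Whether the libraries are separate animals is not stated, nor is the strand setting of the counts, and isoform values are estimates that the 2 sets of tables place differently.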
